A study of Mus musculus with 8 samples.

Results

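Antigen presentation on major histocompatibility complex (MHC) class II was examined through 10 genes in mouse esophagus tissue. The genes were chosen by name: the class II chains H2-Aa, H2-Ab1 and H2-Eb1, the invariant chain Cd74, the peptide loading genes H2-DMa, H2-DMb1 and H2-DMb2, the transactivator Ciita, the protease Ctss and the costimulatory ligand Cd86. All 10 were found among the 32849 gene symbols of the deposited count table, and all 10 passed the filter on low counts that left 14864 genes for testing. Bulk RNA sequencing covered 4 esophagi of MGL KO mice and 4 of wild-type (WT) mice. MGL, encoded by Mgll, is monoacylglycerol lipase, the enzyme that breaks down the endocannabinoid 2-arachidonoylglycerol. The deletion is global, so that every cell type of the organ lacks it, and the WT mice were littermates from the same in-house breeding. Both groups were untreated and healthy, and the study's methods describe young adult male and female mice, while the labels give neither the age nor the sex of each mouse. The libraries are numbered 1 to 4 in each group without a named animal, so the p-values below measure the spread between these libraries.

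MHC class II molecules are pairs of an alpha and a beta chain on the surface of dendritic cells, macrophages and B cells, where they show peptides from engulfed material to CD4+ T cells. The invariant chain holds the groove closed until proteases such as cathepsin S trim it in the endosome, after which H2-DM exchanges the remaining fragment for a peptide and H2-O restrains that exchange. Ciita is the coactivator that switches on the genes of the class II chains, the invariant chain and H2-DM, either constitutively in professional presenting cells or under interferon-gamma in other cells.

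Each library held between 13479069 and 17090152 counts, and a count of 0 in a library allowed a level of up to 0.167 to 0.271 CPM, the count scaled to the normalized library total, counting error only. Mgll, the deleted gene, stood at 13.7 ± 1.54 CPM in MGL KO and 81.2 ± 9.97 CPM in WT (SD, n = 4 each), a log2 fold change of -2.57 with an edgeR adjusted p of 0.000133. Markers of the organ were present in all 8 libraries, with Krt5, a keratin of basal squamous epithelium, at 1260 CPM or more. Some libraries stood apart from the rest. WT replicate 1 held the highest summed level of leukocyte, macrophage, dendritic cell, B cell and T cell markers and 51.0 CPM of Cxcl13, a B cell attracting chemokine, against at most 4.33 CPM elsewhere. MGL KO replicate 4 held 9210 CPM of airway ciliated and secretory markers against 10.7 to 71.2 CPM in the others. MGL KO replicate 2 was as far from MGL KO replicates 1 and 3 as MGL KO replicate 4 was, with a scaled chi-square of their counts (divided by its degrees of freedom) of 84.1 and 87.6 against 83.4 and 75.5, and it had the lowest TMM scaling factor (0.823). Results that rest on WT replicate 1 are therefore given with and without it, and settings that leave out each library in turn, or WT replicate 1 together with MGL KO replicate 4, are given at the end.

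No difference between MGL KO and WT esophagi was detected in any of the 10 class II genes. By edgeR's quasi-likelihood test 0 of 10 had an adjusted p under 0.05, where 0.0471% of all tested genes did (0.0202% higher and 0.0269% lower in MGL KO). At an unadjusted p under 0.05 the count was also 0 of 10, against 8.65% of all tested genes (4.35% higher and 4.29% lower), and in 0 of 10 did the libraries of the groups separate without overlap, against 6.02% (2.72% higher and 3.3% lower). The edgeR exact test, DESeq2 and limma-voom likewise called 0 of 10. At an unadjusted p under 0.05, Ctss passed with the edgeR exact test (p = 0.0451, adjusted p = 0.654) and with DESeq2 (p = 0.0383, adjusted p = 0.468). The same tests put 1109 and 1421 of the 14864 genes under that limit, so 1 of 10 members is close to the background. The fitted log2 fold change (MGL KO minus WT) was below 0 in 9 genes and above 0 in H2-DMa, against 47% and 53% of all genes, and its median was -0.34 against 0.02 over all genes. Libraries differed more within a group than the groups did from each other. WT replicate 1 was the highest library for all 10 genes, and MGL KO replicate 4 came next for 8 of them. In such bulk tissue, fewer cells of a type and less RNA per cell cannot be told apart.

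**Figure D1:**
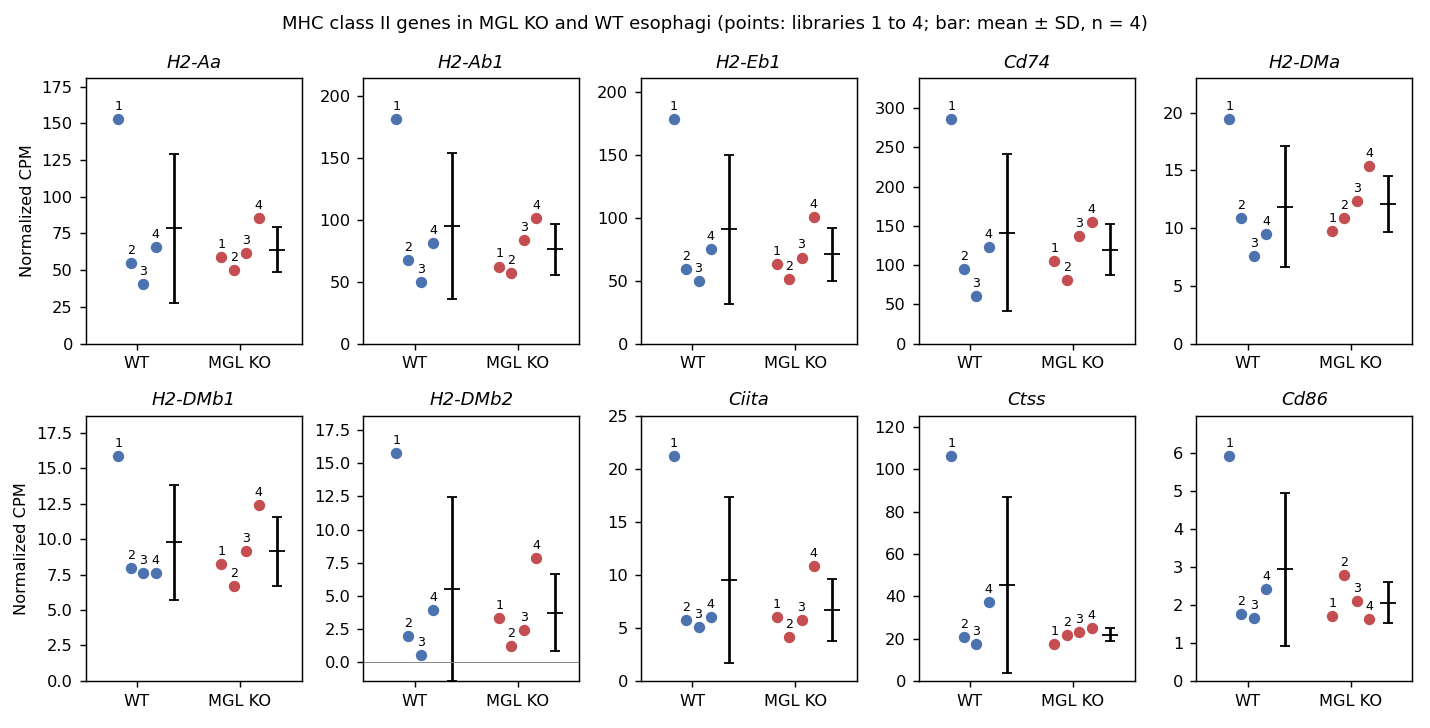
Normalized CPM of the 10 class II genes, with 1 panel a gene, points for libraries 1 to 4 of each group and bars for mean ± SD (n = 4). The WT bars are wide because WT replicate 1 lies above all other libraries in every panel, and WT replicate 3 is the lowest library in 7 of them.

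Levels can be compared between genes only per length. On the scale of CPM per kilobase of merged exons, the median over the 8 libraries was 45.3 for Cd74, 29.1 for H2-Ab1, 25.4 for H2-Eb1 and 14.1 for H2-Aa, which puts the invariant chain and the classical chains on top. The genes of the proteins that act on them came next, at 4.84 for H2-DMb1, 4.24 for Ctss, 2.51 for H2-DMa and 1.55 for H2-DMb2. Ciita and Cd86 were lowest at 0.53 and 0.50. Cd74 was above H2-Ab1 and H2-Aa below both beta chains in each of the 8 libraries. H2-Ab1 and H2-Eb1 differed by less than their spread between libraries, as did H2-DMb1 and Ctss, and as did Ciita and Cd86. Exons were merged over all annotated transcripts, which lowers the value of genes with many of them, such as Ciita with 11041 bases against 2568 for H2-Ab1. The order of H2-DMb1 above H2-DMa rests on their lengths, 1681 and 4331 bases. In CPM the ratio of H2-DMa to H2-DMb1 lay between 1 and 1.64.

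In the GRCm39 assembly, the 6 H2 genes lie within 197.1 kb of chromosome 17. From left to right these are H2-DMa (chr17:34338515-34358958), H2-DMb2 (chr17:34362197-34370529), H2-DMb1 (chr17:34372046-34379204), H2-Ab1 (chr17:34476663-34488393), H2-Aa (chr17:34493404-34506798) and H2-Eb1 (chr17:34504236-34535648). H2-Aa is on the minus strand, and the ends of H2-Aa and H2-Eb1 overlap on opposite strands, so that reads from the overlap cannot be assigned without strand. H2-DMa likewise overlaps Brd2. Ciita (chr16:10297923-10347694) and Cd86 (chr16:36424044-36486443, minus strand) are on chromosome 16, Ctss (chr3:95433963-95463717) is on chromosome 3 and Cd74 is on none of these. H2-DMb1 and H2-DMb2 are close copies of each other, so reads that match both make their separate levels uncertain.

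Class II promoters are known for a shared module in which the X box is bound by the RFX complex and the Y box by NF-Y, and Ciita docks on the assembled factors. The 250 bases before the start of each gene's canonical GENCODE transcript, which for several genes lies inside the gene limits given above, were searched on both strands for GATTGG, the core of the Y box, and for TAGCAAC, an X box core. GATTGG was present in 5 of 10 members, against 16.3% of 21770 protein-coding promoters of the same length. TAGCAAC was present in H2-Eb1 alone of the 10, against 3.22% of all promoters. These matches are letters in a window and not measured binding. The last 120 bases before the start are printed here, 5′ to 3′ on the gene's strand, for the 5 genes with GATTGG, because this motif can be read there within 49 bases of each start. Capitals mark GATTGG, its reverse complement CCAATC and TAGCAAC. The windows are chr17:34506798-34506917 (minus strand) for H2-Aa and, on the plus strand, chr17:34482063-34482182 for H2-Ab1, chr17:34524693-34524812 for H2-Eb1, chr17:34354440-34354559 for H2-DMa and chr17:34364054-34364173 for H2-DMb2.
H2-Aa: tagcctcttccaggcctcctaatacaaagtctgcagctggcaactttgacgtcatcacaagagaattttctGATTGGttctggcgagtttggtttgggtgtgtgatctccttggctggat
H2-Ab1: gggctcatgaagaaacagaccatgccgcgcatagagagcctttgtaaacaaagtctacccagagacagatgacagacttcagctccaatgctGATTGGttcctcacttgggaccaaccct
H2-Eb1: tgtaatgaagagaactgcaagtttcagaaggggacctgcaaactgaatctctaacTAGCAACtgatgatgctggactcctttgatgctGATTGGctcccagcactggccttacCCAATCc
H2-DMa: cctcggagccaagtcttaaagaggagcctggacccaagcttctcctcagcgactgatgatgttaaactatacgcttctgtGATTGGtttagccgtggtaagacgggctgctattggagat
H2-DMb2: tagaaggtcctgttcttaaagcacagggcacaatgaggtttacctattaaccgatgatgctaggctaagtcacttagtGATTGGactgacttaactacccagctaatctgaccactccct
On the gene's strand GATTGG began 49 bases before the start of H2-Aa, 28 before H2-Ab1, 32 before H2-Eb1, 40 before H2-DMa and 42 before H2-DMb2. In H2-Eb1 the X box core began 65 bases before the start, upstream of the Y box core.

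The classical chains come first. H2-Aa, the alpha chain of the I-A molecule, was at 58.8, 49.9, 61.8 and 85.6 CPM in MGL KO replicates 1 to 4 and at 153, 54.9, 40.5 and 65.5 CPM in WT replicates 1 to 4. The group means were 64.0 ± 15.2 and 78.5 ± 50.8 CPM (SD, n = 4), and the log2 fold change was -0.29 (SE 0.38, edgeR adjusted p = 0.827). WT held both the highest and the lowest library, so the groups overlapped over the whole MGL KO range. H2-Ab1, the beta chain that pairs with it, was at 62.3, 57.1, 84.0 and 101.7 CPM in MGL KO and at 182, 67.6, 50.1 and 81.7 CPM in WT. Its log2 fold change was -0.32 (SE 0.38, edgeR adjusted p = 0.808). H2-Eb1, the beta chain of the I-E molecule, was at 63.6, 51.1, 68.4 and 100.4 CPM in MGL KO and at 179, 59.6, 49.7 and 75.4 CPM in WT, a log2 fold change of -0.36 (SE 0.40, edgeR adjusted p = 0.796). The libraries stood in nearly the same order for all 3 chains, with WT replicate 1 at the top, MGL KO replicate 4 next and WT replicate 3 at the bottom.

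Cd74, the invariant chain, followed the chains it escorts. It was at 105, 81.5, 138 and 154 CPM in MGL KO and at 286, 95.4, 59.96 and 123 CPM in WT. The means of 119.6 ± 32.6 and 141 ± 100.1 CPM gave a log2 fold change of -0.24 (SE 0.44, edgeR adjusted p = 0.883). The 95% interval of this log2 fold change ran from -1.23 to 0.75, so a moderate difference in either direction was not detectable with 4 libraries a group. The chains and Cd74 kept close proportions across libraries although their levels varied 3.60-fold to 4.77-fold. The ratio of H2-Aa to H2-Ab1 CPM lay between 0.735 and 0.944, that of H2-Eb1 to H2-Ab1 between 0.814 and 1.02, and that of Cd74 to H2-Ab1 between 1.20 and 1.69. These ratios varied 1.28-fold, 1.25-fold and 1.41-fold and were narrower than the ranges of the levels themselves.

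**Figure D2:**
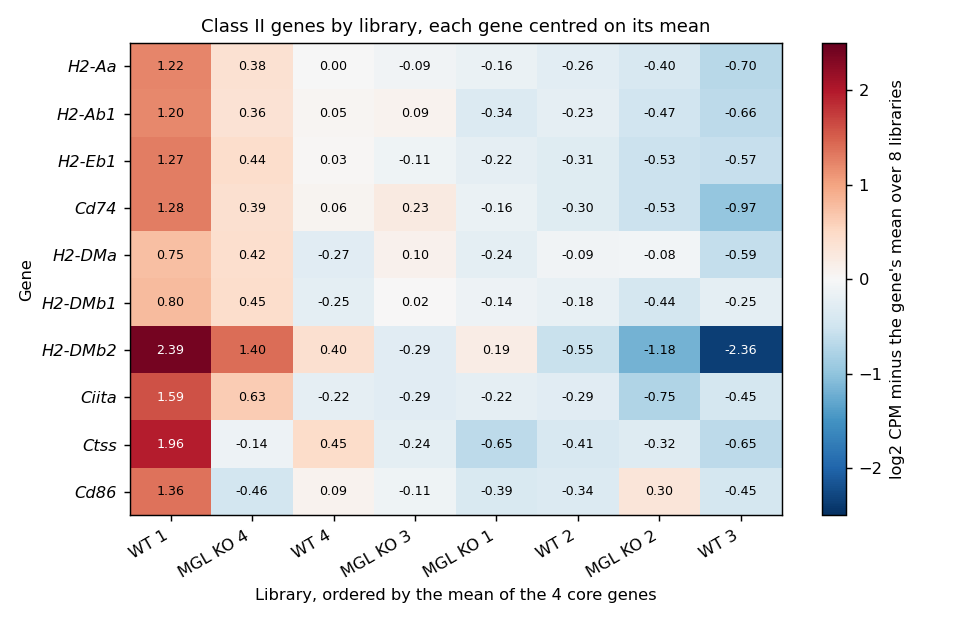
Log2 CPM of each class II gene minus its own mean over 8 libraries, with 1 row a gene and 1 column a library, ordered by the mean of H2-Aa, H2-Ab1, H2-Eb1 and Cd74. The first column, WT replicate 1, is above the mean for all 10 genes, H2-DMb2 reaches from 2.39 to -2.36, and Ctss and Cd86 do not share the high value of MGL KO replicate 4.

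The peptide loading genes varied less, with the exception of H2-DMb2. H2-DMa, the alpha chain of H2-DM, was at 9.74, 10.9, 12.3 and 15.4 CPM in MGL KO and at 19.5, 10.8, 7.63 and 9.52 CPM in WT, a log2 fold change of 0.03 (SE 0.29, edgeR adjusted p = 0.981). H2-DMb1, one of its beta chains, was at 8.27, 6.68, 9.19 and 12.4 CPM in MGL KO and at 15.8, 7.99, 7.63 and 7.63 CPM in WT, a log2 fold change of -0.10 (SE 0.30, edgeR adjusted p = 0.933). In both genes WT replicate 1 was above all MGL KO libraries, while the other 3 WT libraries lay at 10.8 CPM or below. H2-DMb2, the other beta chain, was at 3.37, 1.26, 2.40 and 7.87 CPM in MGL KO and at 15.7, 2.00, 0.526 and 3.91 CPM in WT. Those values rest on 14 to 140 counts in MGL KO and 8 to 282 in WT. The log2 fold change of H2-DMb2 was -0.56 (SE 0.91, edgeR adjusted p = 0.863). From its lowest to its highest library H2-DMb2 varied 29.9-fold, against 2.37-fold for H2-DMb1, and the ratio of the paralogs ran from 0.0690 in WT replicate 3 to 0.993 in WT replicate 1.

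Ciita, the master regulator, was at 6.0, 4.15, 5.73 and 10.8 CPM in MGL KO and at 21.2, 5.71, 5.13 and 6.0 CPM in WT. The log2 fold change of Ciita was -0.51 (SE 0.51, edgeR adjusted p = 0.778). Outside WT replicate 1 and MGL KO replicate 4 its level stayed between 4.15 and 6.0 CPM in both groups. Set against H2-Ab1, its CPM ratio lay between 0.0682 and 0.117, a 1.71-fold range.

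Ctss shared its top and bottom libraries with the chains, WT replicates 1 and 3, while Cd86 followed another order. Ctss, the cathepsin that trims the invariant chain, was at 17.5, 21.8, 23.2 and 24.9 CPM in MGL KO and at 106, 20.6, 17.4 and 37.5 CPM in WT. Its means of 21.8 ± 3.18 and 45.4 ± 41.5 CPM gave the furthest fold change from 0 among the 10 genes, at -1.06 on the log2 scale (SE 0.53, 95% interval -2.25 to 0.13, unadjusted p = 0.0754 and edgeR adjusted p = 0.622). MGL KO libraries were tightly grouped, WT replicates 2 and 3 lay within or just below their range, and WT replicates 1 and 4 lay above it. Cd86, the ligand of CD28 on T cells, was at 1.71, 2.80, 2.10 and 1.63 CPM in MGL KO and at 5.91, 1.77, 1.64 and 2.41 CPM in WT, a log2 fold change of -0.52 (SE 0.45, edgeR adjusted p = 0.747). Its counts were 28 to 34 in MGL KO and 25 to 106 in WT. MGL KO replicate 4, second from the top for most members, was the lowest library for Cd86. Relative to H2-Ab1, Ctss varied 2.39-fold and Cd86 3.06-fold between libraries.

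Without WT replicate 1 the direction turned for 8 of the 9 genes that had been lower in MGL KO. The log2 fold changes were then 0.26 for H2-Aa, 0.20 for H2-Ab1, 0.20 for H2-Eb1 and 0.37 for Cd74. They were 0.37 for H2-DMa, 0.24 for H2-DMb1, 0.81 for H2-DMb2, 0.26 for Ciita and 0.08 for Cd86, and Ctss alone stayed below 0, at -0.20. The median of the 10 was 0.25 against 0.03 over all genes, and edgeR adjusted p-values ran from 0.782 to 0.968. Neither direction was therefore distinguishable from the spread between replicates, and the sign of 8 class II genes turned with 1 library.

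**Figure D3:**
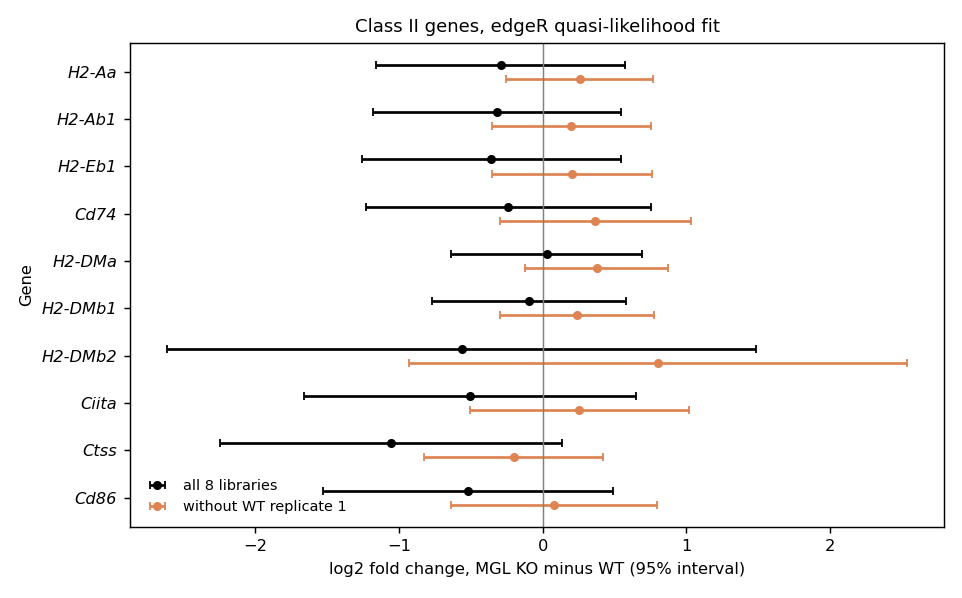
Log2 fold change (MGL KO minus WT) of the 10 class II genes with its 95% interval from the edgeR quasi-likelihood fit, for all 8 libraries (black) and without WT replicate 1 (orange). All intervals of both fits cross 0, and 8 genes move from the left of 0 to the right when that library is left out.

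Markers of leukocytes moved with the class II genes. The summed CPM of H2-Aa, H2-Ab1, H2-Eb1 and Cd74 was 290, 239.6, 352 and 442 in MGL KO and 799.8, 278, 200.3 and 345 in WT. The sum of 10 pan-leukocyte markers, Ptprc (CD45) among them, was 116, 107, 119.99 and 201 CPM in MGL KO and 491, 117, 83.4 and 171 CPM in WT, with the top and bottom libraries the same. All 10 leukocyte markers had a log2 fold change below 0, with a median of -0.65 and 0 called. At an unadjusted p under 0.05, where 4.29% of all tested genes were lower, 1 marker was: Tyrobp, a signalling adaptor of myeloid cells. Without WT replicate 1 the direction turned, with 7 of 10 above 0, a median of 0.12 and 0 at an unadjusted p under 0.05. The class II sum divided by the leukocyte sum was 2.47 ± 0.336 in MGL KO and 2.10 ± 0.361 in WT (n = 4), which overlapped. WT replicate 1 had the lowest ratio, 1.63, and MGL KO replicate 3 the highest, 2.93. How far leukocyte content set the class II levels was not tested.

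Among the cell types that carry class II, macrophage markers were mostly lower in MGL KO without passing the test. Of 12 macrophage markers 11 had a log2 fold change below 0 with a median of -0.84, and 8 were lower at an unadjusted p under 0.05, where 4.29% of all genes were, but 0 passed adjustment. C1qa, a complement component made by tissue macrophages, was at 38.4 to 49.7 CPM in MGL KO and 49.8 to 126 CPM in WT, a log2 fold change of -0.83 (SE 0.27, edgeR adjusted p = 0.503). The summed macrophage level ran from 256 to 327 CPM in MGL KO and from 283 to 726 CPM in WT, and none of the 12 markers was at 0 in all libraries. Without WT replicate 1, 11 of the 12 were still below 0, with a median of -0.45. In that fit 54.8% of all genes were above 0, with a median of 0.03. At an unadjusted p under 0.05 the count was 3 of 12, and the share of all genes at that limit was not counted. MGL KO replicate 4, next to the top for class II, had the lowest macrophage sum.

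Dendritic cell markers were split in direction, with 4 of 9 tested above 0 and 5 below, a median of -0.04 and 0 called of 12 listed. At an unadjusted p under 0.05, 2 of the 9 were lower in MGL KO, where 4.29% of all tested genes were. The 2 were Clec10a, a lectin of dendritic cells and macrophages (log2 fold change -1.13, edgeR adjusted p = 0.494), and Siglech of plasmacytoid dendritic cells (-1.18, edgeR adjusted p = 0.550). Without WT replicate 1, 6 were above 0 and 3 below, with a median of 0.27. In that fit 1 was at an unadjusted p under 0.05, a limit at which the share of all genes was not counted. The dendritic cell sum ranged from 39.8 to 68.1 CPM in MGL KO and from 37.3 to 89.4 CPM in WT, and Fscn1 alone held 15.7 to 35.9 CPM of it. The defining markers were low: Itgax (CD11c) was at 2.30 to 10.1 CPM, and Xcr1 of cross-presenting dendritic cells was at 0.390 CPM or less. The dendritic cell sum put the libraries in the same order as the class II core for the top and bottom places, WT replicate 1, MGL KO replicate 4 and WT replicate 3. The sum of 8 B cell markers spread furthest of the immune lists, at 19.5, 7.4, 4.99 and 54.2 CPM in MGL KO and 164, 5.88, 2.04 and 24.9 CPM in WT. Of these 8, 7 had a log2 fold change below 0 with a median of -1.16, 0 were called, and the median was 1.04 without WT replicate 1. T cell markers summed to 8.66 to 25.3 CPM in MGL KO and 18.5 to 49.3 CPM in WT, with 3 of 8 tested, all 3 below 0 and 0 called. At an unadjusted p under 0.05, where 4.29% of all tested genes were lower, 1 of the 3 was: Cd28, the receptor of Cd86 on T cells (log2 fold change -1.18, edgeR adjusted p = 0.526). Its groups did not overlap, as for 3.3% of all tested genes in that direction. With WT replicate 1 left out, 1 of the 3 was above 0 and 2 below, with a median of -0.49. Cd3e was at 2.18 CPM in WT replicate 1 and at most 0.731 CPM elsewhere. The part of each cell type in the class II levels was not tested.

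**Figure D4:**
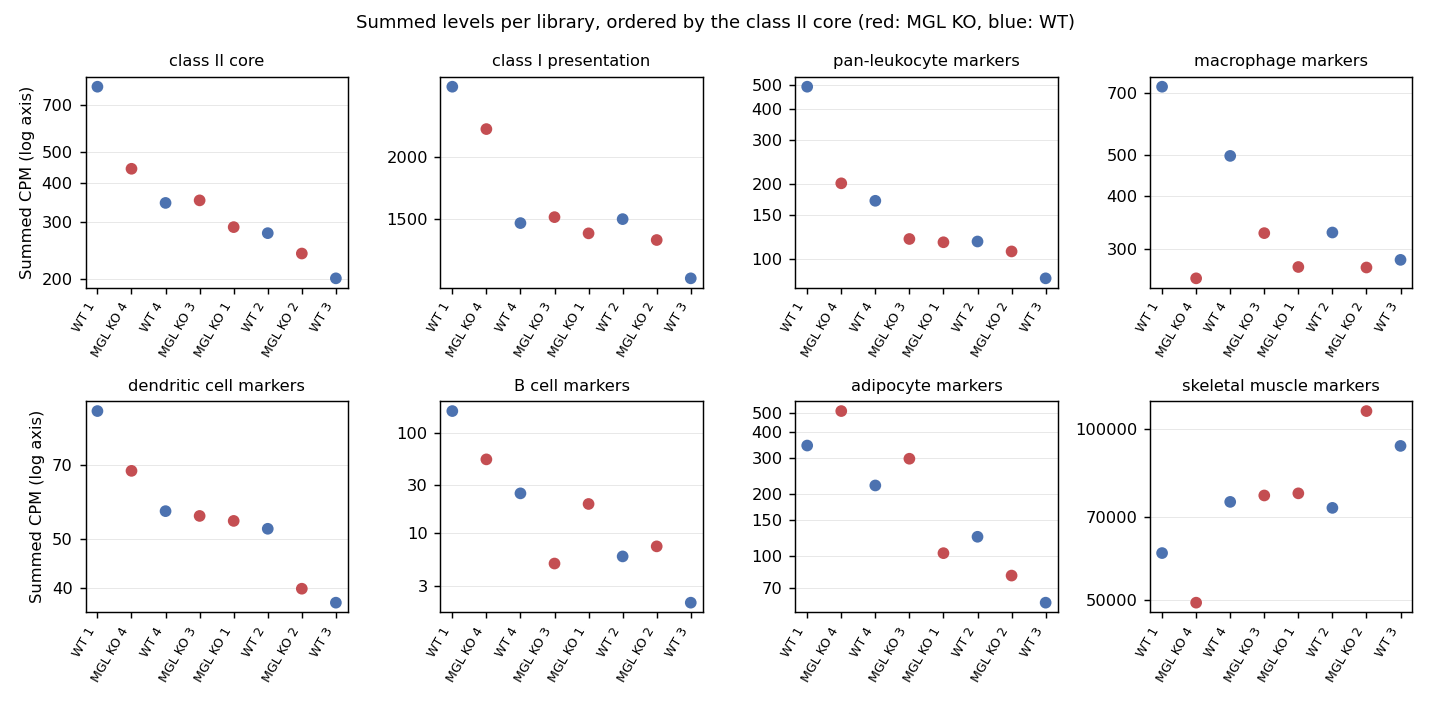
Summed CPM of marker lists in each library on log axes, with libraries ordered by the class II core (H2-Aa, H2-Ab1, H2-Eb1 and Cd74) and coloured by group. WT replicate 1 is highest for class II, class I, leukocyte, macrophage, dendritic cell and B cell lists, while MGL KO replicate 4 is second in most of these but lowest for macrophage markers.

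H2-DMb2 shared its wide range with the B cell markers and with H2-O. H2-Ob, the beta chain of the H2-DM inhibitor and known from B cells, was at 3.74, 0.812, 1.66 and 10.8 CPM in MGL KO and 22.2, 2.40, 0.855 and 3.85 CPM in WT (log2 fold change -0.77, SE 1.03, edgeR adjusted p = 0.830). H2-Oa, its partner, had 28 counts in WT replicate 1, 15 in MGL KO replicate 4 and 5 or fewer elsewhere, too few for testing. The same libraries, WT replicate 1, MGL KO replicate 4, WT replicate 4 and MGL KO replicate 1, were the 4 highest for H2-DMb2, H2-Ob and the B cell sum. Spib, a transcription factor of B cells and plasmacytoid dendritic cells, was at 15.1 CPM in WT replicate 1 and 10.6 CPM in MGL KO replicate 4 but at 2.74 CPM or less elsewhere.

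H2-Ea, the alpha chain that pairs with H2-Eb1, was present in 1 library alone. MGL KO replicate 2 held 78 counts of H2-Ea (chr17:34560926-34563618, minus strand), or 7.04 CPM, and each of the other 7 libraries held 0, which allows up to 0.197 CPM. H2-Eb1 itself was at 51.1 CPM in that library, within the range of the others. As background, the H2-b haplotype of C57BL/6 mice, from which the reference assembly was made, does not transcribe H2-Ea while other haplotypes do. The strain and haplotype of each mouse are not given in the sources used here, and haplotype was not tested.

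**Figure D5:**
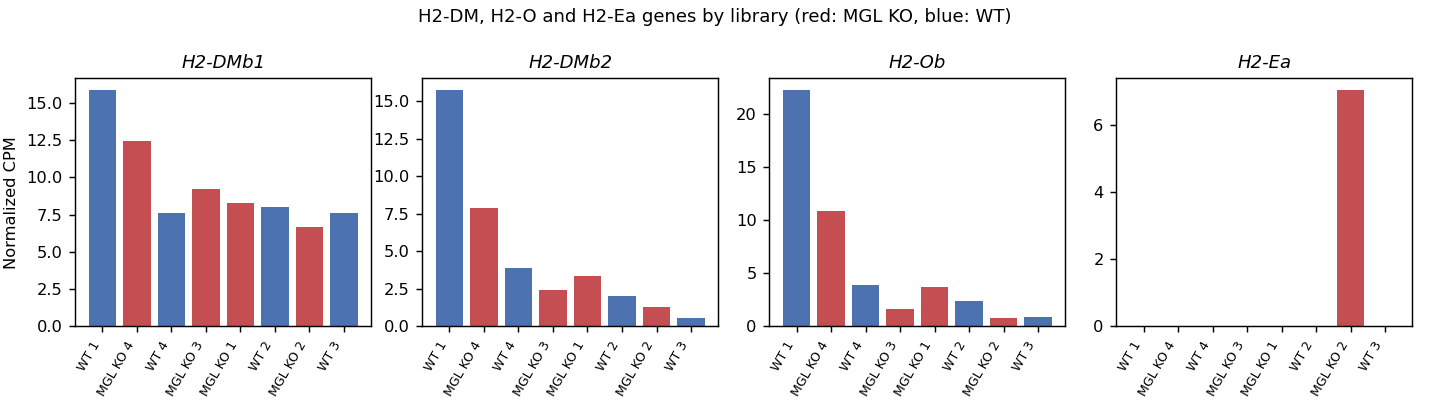
Normalized CPM of H2-DMb1, H2-DMb2, H2-Ob and H2-Ea in each library, ordered by the class II core. H2-DMb2 and H2-Ob are concentrated in WT replicate 1 and MGL KO replicate 4, H2-DMb1 is more even, and H2-Ea has a value in MGL KO replicate 2 alone.

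No difference was detected in the other genes of the pathway. Of 20 further class II pathway genes 16 were tested, 5 with a log2 fold change above 0 and 11 below, a median of -0.19 and 0 called. At an unadjusted p under 0.05 the count was also 0. Without WT replicate 1 the direction turned, with 10 above 0, 6 below and a median of 0.10. Ctsb, an endosomal cathepsin also abundant in macrophages, was at 292 to 386 CPM in MGL KO and 327 to 770 CPM in WT (log2 fold change -0.53, SE 0.26, edgeR adjusted p = 0.615). Ifi30, the thiol reductase that opens disulfide bonds of antigens, was at 11 to 13.8 CPM in MGL KO and 13 to 21.8 CPM in WT (log2 fold change -0.31, edgeR adjusted p = 0.665). The costimulatory genes Cd80 and Cd40 stood at log2 fold changes of -0.22 and -0.47 with edgeR adjusted p-values of 0.821 and 0.765. The groups overlapped for all 4 genes.

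The factors that act above the class II genes gave no call either. Of 17 genes of class II transcription and interferon-gamma signalling 16 were tested, 9 above 0 and 7 below, with a median log2 fold change of 0.05 and 0 called, also at an unadjusted p under 0.05. When WT replicate 1 was left out, 12 were above 0 and 4 below, with a median of 0.11. Rfx5, the DNA-binding subunit of the RFX complex, was at 9.80, 8.21, 10.9 and 13.4 CPM in MGL KO and 14.8, 13.9, 12.5 and 13.6 CPM in WT. Its log2 fold change of -0.37 (SE 0.17) had an unadjusted p of 0.0577 and an edgeR adjusted p of 0.593, and MGL KO replicate 4 lay within the WT range. Rfxap and Rfxank, the other RFX subunits, stood at 0.13 and 0.03. Ifng, the gene of interferon-gamma, was at 0.0571 CPM in WT replicate 2 and had 0 counts in the other 7 libraries, under the limit that a count of 0 allows.

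Class I presentation, which all nucleated cells perform, followed a similar order of libraries. Its 14 genes summed to 1407, 1364, 1516 and 2277 CPM in MGL KO and 2769, 1502, 1143 and 1475 CPM in WT. A log2 fold change below 0 was found for 10 of 14, with a median of -0.23 and 0 called, and without WT replicate 1 the median was 0.20 with 12 of 14 above 0. B2m, the light chain of class I, was at 392 CPM in WT replicate 1, 226 in MGL KO replicate 4 and 105 to 153 CPM in the others. The direction of class I therefore turned with the same library as that of class II.

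The genes outside the list whose centred log2 profile over the 8 libraries was closest to the mean of H2-Aa, H2-Ab1, H2-Eb1 and Cd74 were Stk10, Apoe, Inpp5d, H2-D1 and Cotl1. Their root mean square differences from it were 0.0936, 0.112, 0.145, 0.158 and 0.169 on a profile that spanned 1.97 log2 units. Stk10 is a kinase of lymphocytes, Apoe an apolipoprotein of macrophages and other cells, Inpp5d the phosphatase SHIP1 of blood cells and H2-D1 a class I chain. By the same measure, H2-DMa, H2-DMb1 and Ciita stood 0.264, 0.256 and 0.246 from the profile, further than these genes. Ctss, Cd86 and H2-DMb2 stood 0.398, 0.430 and 0.862 from it, the furthest of the members.

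Markers of tissue that lies beside the epithelium also shifted between libraries, with values as follows. Adipocyte markers summed to 509 CPM in MGL KO replicate 4, 346 in WT replicate 1 and 59.2 to 298 CPM in the others. Skeletal muscle markers summed to 49413 and 60404 CPM in MGL KO replicate 4 and WT replicate 1, the lowest of the 8 libraries, and reached 107330 CPM in MGL KO replicate 2 and 93211 CPM in WT replicate 3, which were at the bottom for the class II core. Squamous epithelium markers ranged from 4698 to 18626 CPM, with the same MGL KO replicate 2 and WT replicate 3 lowest and WT replicate 2 highest. Lymph node and thymus markers summed to 81.6 CPM in WT replicate 1 and 6.68 to 32.0 CPM elsewhere, and Cxcl13 alone held 51.0 CPM of the first value. Ccl21a, a chemokine of lymphatic vessels and lymph nodes, was at 6.23 to 27.5 CPM in MGL KO and 19.9 to 29.5 CPM in WT. Ptcra, a thymocyte gene, had 0 counts in all 8 libraries. At both ends of the class II order, muscle markers thus ran opposite to class II. The part of these tissues in the class II level was not tested.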

How the data were processed

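RNA from frozen esophagus tissue of 4 MGL KO and 4 WT mice was sequenced after poly(A) selection. The authors checked reads with FastQC 0.11.9, trimmed them with Cutadapt and aligned them to GRCm39 with STAR 2.7.10b. They deposited raw read counts per gene symbol. The counting tool, its use of strand and its annotation are not given in the sources used here, so overlapping and paralogous genes may share reads.

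Counts were analysed with edgeR 4.0.16 (limma 3.58.1, R 4.3.3). Genes were kept by filterByExpr with a minimum count of 10, libraries were scaled by TMM, and MGL KO was compared with WT by the quasi-likelihood test, with Benjamini-Hochberg adjustment over all 14864 tested genes. CPM values are TMM-normalized, and fold changes are log2. SEs were taken from the fold change and its F statistic. The edgeR exact test named in the study's methods, DESeq2 1.42.0, voom, other scalings and filters and the omission of single libraries served as alternatives. Fits were tested on simulated counts. No pair of libraries within a group was a duplicate, and pairs between the groups were not checked. Libraries with the same number did not deviate together (correlations -0.28 to 0.08), so the numbers were not taken as pairs.

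The members and the gene lists were chosen with earlier results of these data known. All members and Mgll were named, with the 5 genes of closest profile. Some others were taken from the further pathway genes, the 2 genes of lowest p in each list and markers that define a cell type. Xcr1, Fscn1, Spib, Ifng, Rfxap, Rfxank, B2m and Ptcra were named after their values were seen. The 250-base promoter windows and exon lengths come from GENCODE M39.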

Additional observations from a re-analysis of the deposited data

Results flagged for a closer look

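With 4 libraries a group, 160 groups were tested (each level once in MGL KO and once in WT). In 24 of them the highest or lowest library was further from the rest than Dixon's 95% critical value. Chance gives about 8 if levels are independent and normally distributed, which was not checked, and some levels were at 0 in most libraries. Of the 24, 14 lay in WT replicate 1. Among class II genes these were H2-DMb1 at 15.8 CPM (next WT library 7.99), Ciita at 21.2 CPM (next 6.0), H2-Ob at 22.2 CPM (next 3.85), H2-Oa at 1.56 CPM (next 0) and Ifi30 at 21.8 CPM (next 14.5). Leukocyte genes of that library were Tyrobp at 21.0 CPM (next 7.50), Fcer1g at 20.2 (next 8.50), Itgax at 9.43 (next 3.37), Flt3 at 2.68 (next 0.717), Cd79b at 31.5 (next 4.69), Cd28 at 4.74 (next 2.09) and Cd3e at 2.18 (next 0.400), with Cxcl13 at 51.0 (next 3.65) and the B cell sum at 164 (next 24.9).

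MGL KO replicate 2 stood apart for H2-Ea at 7.04 CPM (0 in the rest) and for the cathepsin Ctsl at 190.0 CPM (next 133). MGL KO replicate 4 stood apart for the class I sum at 2280 CPM (next 1520), the leukocyte sum at 201 CPM (next 119.99), the airway sum at 9210 CPM (next 71.2), Ltf at 1970 CPM (next 15), Scgb1a1 at 2220 CPM (next 18.9), Cd3e at 0.731 CPM (next 0.123) and Pdcd1lg2 at 0.112 CPM (next 0). That Pdcd1lg2 value is 2 counts, under the limit that a count of 0 allows, and WT replicate 4 held more, at 0.261 CPM. In WT replicate 3, Krt5 was lowest at 1260 CPM (next 1990). Many of these levels belong to the same libraries and are not independent of each other.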

How the results depend on the processing

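The class II result held in all settings run: 0 of 10 genes passed the threshold under 11 settings that kept all libraries, under 8 that left out 1 library and without both WT replicate 1 and MGL KO replicate 4, and H2-DMb2 was not tested where every library needed 10 counts. The lowest adjusted p of any member was 0.468, for Ctss with DESeq2, and edgeR's unadjusted p for Ctss was 0.0353 without WT replicate 2 and 0.0257 without WT replicate 3. The direction was less firm. Leaving out single libraries moved the log2 fold change from -0.50 to 0.26 for H2-Aa, -0.52 to 0.20 for H2-Ab1, -0.57 to 0.20 for H2-Eb1, -0.48 to 0.37 for Cd74, -0.13 to 0.37 for H2-DMa, -0.28 to 0.24 for H2-DMb1, -1.23 to 0.81 for H2-DMb2, -0.84 to 0.26 for Ciita, -1.32 to -0.20 for Ctss and -0.70 to 0.08 for Cd86. Without both libraries, a setting chosen after seeing the data, values turned to 0.22 (Cd74), 0.17 (Cd86), 0.08 (H2-Aa), 0.03 (H2-Ab1), 0.06 (H2-DMb1) and 0.15 (H2-DMb2), and 7 of 10 were above 0. With voom quality weights Cd74 stood at 0.02 and H2-DMb1 at 0.03, and with library size alone H2-DMa stood at -0.02.

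Library numbers did not pair the samples: with a replicate block H2-DMb2 stood at 0.03 and 2 genes were called over all genes. That total was 7 as reported, 65 with the edgeR exact test on filtered genes, 42 on all genes with a count, 137 with DESeq2, 25 with voom quality weights, 2 with a robust fit, 2 without a count filter, 13 at an adjusted p under 0.10, 2 without both libraries and 2 to 5 without 1 library. Higher calls were 3 of 7 as reported, 42 of 65 and 30 of 42 with the exact tests, 79 of 137 with DESeq2, 20 of 25 with voom, 5 of 6 with library size alone and 4 of 7 with 10 counts in every library; the cause was not tested. The log2 ratio of the class II core to leukocyte markers differed by 0.24 between groups (0.12 to 0.31 without 1 library), by 0.36 with levels per kilobase, by 0.48 with macrophage markers and by -0.06 with dendritic cell markers below the line. Depth limits Cd86 and H2-DMb2 most, with 25 and 8 counts in their lowest libraries.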
